A study of Rattus norvegicus with 9 samples.

Results

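Arc, the activity-regulated cytoskeleton-associated gene, was followed in rat cortical neurons that had been silenced with tetrodotoxin (TTX) and then released from it. Every probe named Arc on the arrays was taken, which gave 1 probe, and Arc is thus 1 of 25786 genes or features tested. The data are 9 single-colour expression arrays, 3 in each of 3 groups. Cells of prenatal rat cortices were grown in Neurobasal with B27 or NS21 until 11 to 15 days in culture. All 3 groups spent 48 h in TTX, a sodium channel blocker that silences firing. The first group was collected at that point, and the W15 and W45 groups 15 min and 45 min after the toxin had been taken away with 3 washes of medium. The labels record no wash for the TTX group, so washing and toxin removal cannot be told apart, and no culture without TTX was analysed here. The labels do not say whether the 3 replicates of a group are separate cultures, so p-values measure only the spread between these samples.

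Arc is an immediate early gene of neurons. Its transcription starts within minutes of synaptic activity, driven by calcium entry and kinase signalling onto transcription factors that are already present, such as SRF, MEF2 and CREB. The Arc mRNA travels into dendrites and is translated there, and the protein promotes endocytosis of AMPA-type glutamate receptors and can assemble into virus-like capsids. The series title names Arc and asks about its rapid induction, and the comparisons below give its level when activity could resume.

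All Arc values come from 1 probe of 60 bases, A_44_P118724, which the files assign to the transcript NM_019361. Its sequence is shown because every value of Arc rests on it, written 5′ to 3′ as in the array files:
Arc probe: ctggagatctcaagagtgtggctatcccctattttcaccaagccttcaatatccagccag
The files place it at chr7:112806255-112806314 in the rn3 build, listed from the higher to the lower coordinate. An rn3 annotation was not used here, so its exon is not given. Of its bases, 29 were G or C, and 0 of the 41011 other probes shared a stretch of 20 bases with it on either strand. The array carries this probe in 10 spots, as it does for 263 of its 41012 probes.

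Detection and correlation were similar over the arrays, but the spread over repeated spots was not. Between 72.4 and 77.9% of probes stood well above background on each array, and arrays of a group correlated at 0.984 to 0.996. The median coefficient of variation over the spots of 263 replicated probes was 8.83 and 11.9% on W15 replicates 1 and 2. It was 16.8 and 17.9% on W45 replicates 2 and 3, and 2.99 to 4.51% on the other arrays. The arrays with the wider spread were those of slide 3, which held no TTX array. Markers of neurons (6 of 6, among them Rbfox3, Map2 and Tubb3), of glutamatergic neurons (5 of 5) and of GABAergic neurons (5 of 5) were well above background on all 9 arrays. So were those of astrocytes (5 of 5), oligodendrocytes and precursors (6 of 6), fibroblasts (4 of 4) and 3 of 4 of endothelial cells and pericytes. Of 5 microglial markers, 0 were above background on all arrays, and Aif1 and Cx3cr1 were on none. The cultures thus held glial RNA beside neuronal RNA, and its part in the Arc values was not tested. The summed microglial level stayed at or under 0.0337. Limma called 0 of these markers at 15 or 45 min. Over all genes 0.0233% and 0.182% were called higher, so a count of 0 is near the background and is no result about the markers. The summed neuronal marker signal, relative to the 75th percentile of the array, was 104 to 130 in TTX, 114 to 138 at 15 min and 101 to 130 at 45 min. The astrocyte sum was 78.9 to 92.5, 81.1 to 90.1 and 71.7 to 96.3. The sum of the glutamatergic markers was less even. It was at most 19.6 in TTX and 19.8 at 15 min. At 45 min it ran more widely, up to 27.5, and its lowest array lay below all arrays of the other groups.

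Arc was low in silenced neurons, somewhat higher after 15 min and far higher after 45 min. Levels are log2 signals relative to the 75th percentile of the same array, so that a level of 0 equals that percentile. In TTX the Arc level was -1.94, -1.77 and -1.70 in replicates 1 to 3. At 15 min it was -0.61, 0.29 and -0.02, and at 45 min 3.77, 3.66 and 3.12. The groups did not overlap: every array at 15 min lay above every TTX array, and every array at 45 min lay above all 6 others. The group means were -1.80 ± 0.12, -0.11 ± 0.45 and 3.52 ± 0.35 (SD, n = 3 each). The arrays at 15 min spanned 0.89 log2 units and those in TTX 0.24, with W15 replicate 1 the lowest at 15 min and W45 replicate 3 the lowest at 45 min. In bulk cultures, more cells that express Arc and more Arc RNA per cell cannot be told apart.

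The signal itself, before any scaling between arrays, followed the same order. The mean over the 10 spots was 446, 498 and 724 scanner units in TTX, 1010, 1969 and 1763 at 15 min, and 23369, 18496 and 13804 at 45 min. Over the 30 spots of a group it ran from 421 to 740, from 924 to 2166 and from 12299 to 24187, so that no spot of one group reached the range of another. All 10 spots were well above background on all 9 arrays, with 0 saturated and 0 outlier spots. The scanned signal was 11.3 to 18.3 times the local background in TTX, 24.4 to 46.1 times at 15 min and 340 to 499 times at 45 min. Arc RNA was thus measured in the silenced cultures, not merely bounded by background.

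**Figure D1:**
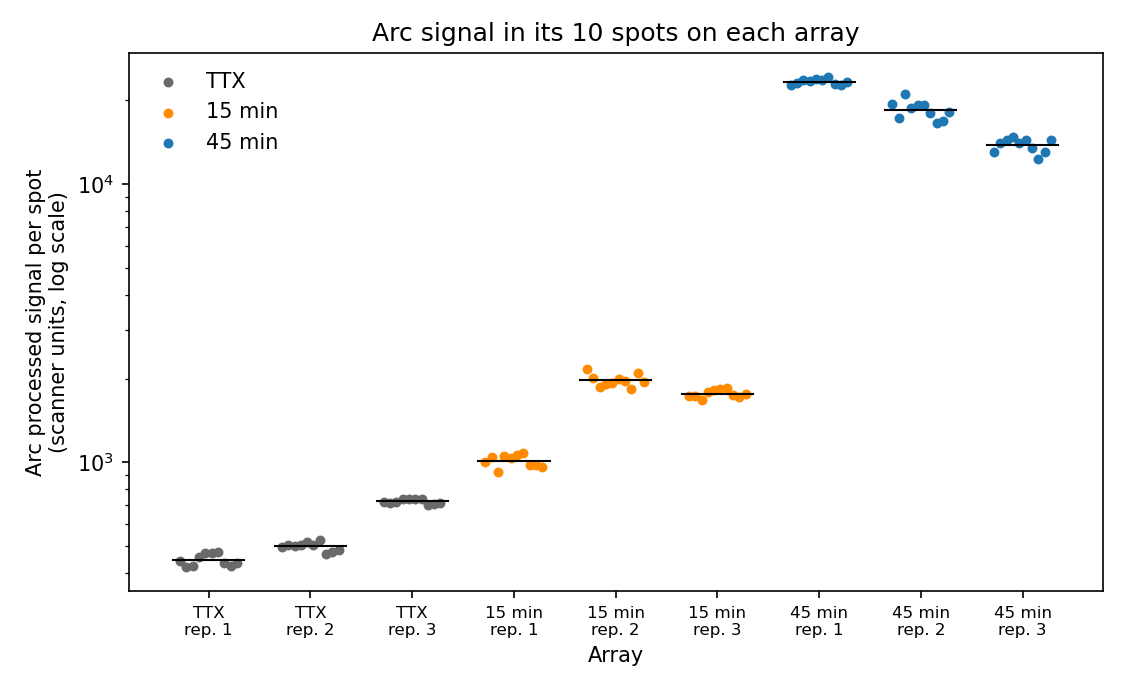
Processed signal of each of the 10 Arc spots (points, scanner units, log scale) on each of the 9 arrays, with the mean of each array as a black line. The 30 TTX spots lie between 421 and 740, the 30 spots at 15 min between 924 and 2166, and the 30 spots at 45 min between 12299 and 24187.

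After the gradient correction, spots of one array differed less than arrays of one group. The coefficient of variation over the 10 spots was then 1.91 to 7.49%. The scanner software's correction of gradients across the array was fitted on replicated probes, and all 10 Arc spots were used in it; before that step the coefficient was 5.54 to 22.5%. The pooled SD over spots was 0.052, 0.065 and 0.081 log2 units in the TTX, 15 min and 45 min groups, where the SD between arrays was 0.12, 0.45 and 0.35. Fitted spot by spot, the change at 45 min against TTX lay between 5.25 and 5.44, and that at 15 min between 1.62 and 1.74. In each comparison the arrays were without overlap for all 10 spots. With 3 arrays in a group, precision is limited.

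The first comparison asks how far Arc had moved 15 min after washout. The log2 difference was 1.69 ± 0.25 (SE, with n = 3 in both groups), a 3.22-fold difference with a 95% interval of 2.20 to 4.73. The p-value of limma was 6.53e-05 before adjustment and 0.187 after Benjamini-Hochberg adjustment over all genes, so Arc did not pass the threshold of 0.05. Over all genes, 0.0233% were called higher (6 genes) and 0% lower, with 665 higher and 237 lower at an unadjusted p under 0.05. Arrays at 15 min lay above those in TTX without overlap for 10.3% of all genes. By size, the difference of Arc was the sixth largest upward one (rank 6) among 12307 genes with a symbol. TTX replicates 2 and 3 were alone on slide 2, so slide and group are partly mixed in both comparisons with TTX. On slide 1, the only one with all 3 groups, 1 array at 15 min stood 1.92 above 1 TTX array, and slide as a fixed block gave 2.0 ± 0.40 (adjusted p = 0.980). With a trended and robust spread the adjusted p was 0.0497, and over all alternatives it ran from 0.0497 to 1.0.

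By 45 min Arc had risen 40.0-fold over TTX, with a 95% interval of 27.3 to 58.7. The log2 change was 5.32 ± 0.25 (SE, n = 3 per group, limma adjusted p = 1.07e-05), higher in 3 of 3 arrays. This was the third largest rise (rank 3) among the 12307 genes with a symbol. Over all genes 0.182% were called higher and 0.0194% lower, and arrays lay higher without overlap for 8.36%. The value was 5.71 on slide 1 alone (1 array against 1) and 5.63 ± 0.40 with slide as a fixed block (adjusted p = 0.00595).

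Most of the rise fell between 15 and 45 min. Arc rose a further 12.4-fold there, with a 95% interval of 8.45 to 18.2, or 3.63 ± 0.25 on the log2 scale (adjusted p = 3.19e-04). That was the second largest rise (rank 2) among genes with a symbol, behind Nr4a1. Over all genes 0.120% were called higher and 0.0116% lower, and 3.93% lay higher without overlap. The groups at 15 and 45 min are balanced over slides: the difference was 3.79 on slide 1 (1 array each) and 3.56 ± 0.37 on slide 3 (2 arrays each, adjusted p = 0.144). Put as a share, the Arc signal at 15 min was 8.06% of that at 45 min, with a 95% interval of 5.49 to 11.8%, and the signal in TTX was 2.50% of it.

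Arc was set beside 21 immediate early genes, whose RNA rises after stimulation without new protein synthesis. One of them, Npas4, was not above background on any TTX array and passed the filter on low values only through the washed arrays, so it is left out of the counts against TTX, a choice made after seeing the data. Of the 20 others, 5 were called higher at 15 min, where 0.0233% of all genes were, and 16 at 45 min, where 0.182% were. The list was chosen with earlier results of these data known. With Npas4, the comparators make up all 6 genes called higher at 15 min, so that share is not independent of them. Of all 21, 14 were called higher at 45 against 15 min, beside 0.120% of all genes, and 0 were called lower in any comparison. Over the alternatives that count of 14 ran from 10 to 15. The median log2 change of the 20 was 0.69 and 2.51 against TTX and 1.84 in the step, where all genes had medians of 0.06, 0.05 and 0.00. With Npas4 counted, the 15 min count was 6, which dropped to 2 without TTX replicate 2 or without W15 replicate 2, and to 3 without TTX replicate 3 or without W15 replicate 3. It was 2 with a model-based background correction (normexp) and 0 with slide as a fixed block. Normexp added an offset of 50 units to every signal. All comparators share the TTX arrays with Arc.

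**Figure D2:**
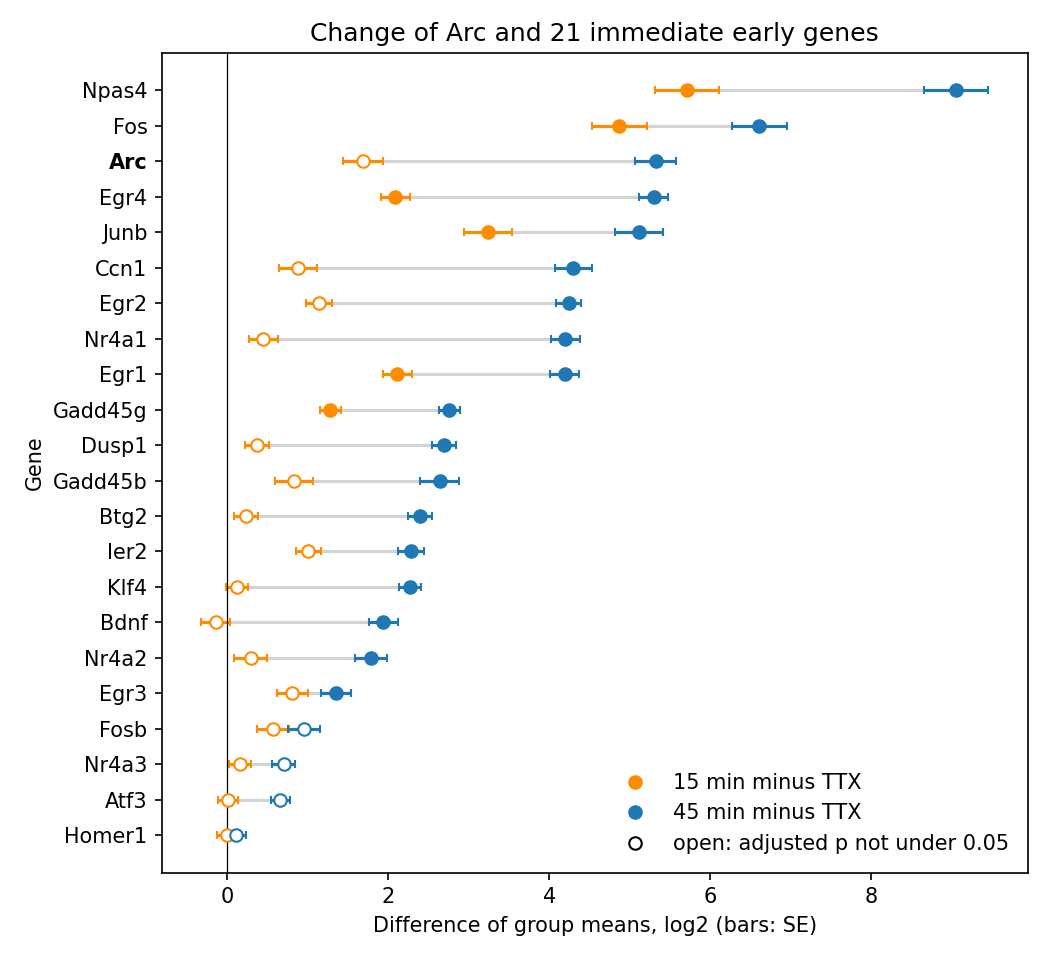
Difference of group means on the log2 scale (x axis, bars are SE, n = 3 arrays per group) for Arc and 21 immediate early genes (y axis), at 15 min (orange) and 45 min (blue) against TTX, with open points where the adjusted p was not under 0.05. At 45 min Fos lies beyond Arc with 5.32, as does Npas4, which was not above background in TTX, and the 15 min point of Arc at 1.69 is open.

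To compare genes, the log2 change of each was subtracted from that of Arc on the same arrays and tested. The fit had 94.7 degrees of freedom after shrinkage, against 9.19 for the genes themselves, since all differences contain the same Arc values. Almost every gene passed: the change of Arc was the larger against 99.8% of all genes at 15 min, 100% at 45 min and 100% at 45 against 15 min, and the smaller against 0.0155%, 0.00776% and 0%. An adjusted p here is therefore close to the unadjusted one. The same differences were also tested with the own spread of each over the 9 arrays (6 residual degrees of freedom), chosen after seeing the data.

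Of the 20 comparators measured in TTX, 13 had changed less than Arc at 15 min, 2 more, and 5 could not be told from it. At 45 min the numbers were 17, 1 and 2. For the step from 15 to 45 min, over all 21, they were 16, 0 and 5. With the own spread of each difference they were 13, 2 and 5 at 15 min, 16, 1 and 3 at 45 min, and 17, 0 and 4 for the step. The genes that crossed the threshold between these versions were Egr2 and Ier2 (changed less than Arc at 15 min only with the own spread), Egr3 and Ccn1 (only without it), Ccn1 at 45 min (only without it) and Egr2 in the step (only with it).

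The 2 that had moved further than Arc at 15 min were Fos and Junb. Fos, a subunit of the AP-1 transcription factor, had levels of -3.06, -2.92 and -2.52 in TTX, 1.58, 2.72 and 1.80 at 15 min, and 4.14, 4.0 and 3.18 at 45 min. It rose 29.3-fold at 15 min and 97.6-fold at 45 min (adjusted p = 0.00176 and 2.12e-05). The change of Arc minus that of Fos was -3.18 at 15 min (95% interval -3.91 to -2.45), -1.29 at 45 min (-2.02 to -0.56) and 1.90 over the step (1.17 to 2.62). Fos thus led Arc at both times, but Arc rose more between them.

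Junb, a partner of Fos in AP-1, had levels of -3.05, -3.22 and -3.31 in TTX, -0.27, 0.37 and 0.03 at 15 min, and 2.17, 2.38 and 1.18 at 45 min. It rose 9.43-fold at 15 min, a call that was lost in 7 of 22 alternatives, and 34.5-fold at 45 min. Arc minus Junb was -1.55 at 15 min and 0.22 at 45 min (95% interval -0.51 to 0.95), so the pair could be told apart at 15 min and not at 45 min. The difference at 15 min did not pass the threshold in 1 of 23 alternatives. In the step Arc rose more, by 1.76 (1.03 to 2.49). The third AP-1 gene, Fosb, was higher by 0.95 at 45 min and was not called (adjusted p = 0.223).

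Npas4, a neuronal transcription factor driven by calcium entry, was not well above background on any TTX array, so its rise is given over a floor. Over that floor it was 19.8-fold at 15 min and 201-fold at 45 min. The floor is the lowest signal well above background in TTX, or the probe's own signal where that was higher. A signal of like level can miss that mark. Rora was well above background on all 3 TTX arrays, at -6.48, -6.09 and -6.07. At 45 min it was so on only 1 array, at levels of -6.08, -6.00 and -6.41. The values over the floor are thus approximate and not strict lower bounds. On the log2 scale these values are 4.31 and 7.65, beside 1.69 and 5.32 for Arc, and they hold for the main background treatment only. With normexp and its offset the fitted changes of Npas4 were 2.55 (adjusted p = 0.194) and 5.44 (limma, 3 arrays per group), below those values. Arc minus Npas4 was then -0.94 at 15 min and -0.29 at 45 min and passed the threshold at neither time. In the step, where both groups were measured, Arc minus Npas4 was 0.29 (-0.46 to 1.04).

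Of the Egr family of zinc-finger transcription factors, Egr4 was nearest to Arc. Egr4 had levels of -0.10, -0.21 and -0.36 in TTX, 1.82, 1.84 and 1.93 at 15 min, and 5.51, 4.79 and 4.95 at 45 min. It rose 4.25-fold at 15 min (adjusted p = 0.00681), a call lost in 6 of 22 alternatives, and 39.5-fold at 45 min. Arc minus Egr4 was -0.40 at 15 min (-1.14 to 0.34), 0.02 at 45 min (-0.72 to 0.76) and 0.42 in the step (-0.32 to 1.15), so no difference was detectable within these intervals. The SD of the 3 arrays at 15 min was 0.06 for Egr4 and 0.45 for Arc.

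Egr1, the best known member of the family, rose 4.32-fold at 15 min, a call lost in 3 of 22 alternatives, and 18.3-fold at 45 min. It could not be told from Arc at 15 min (-0.42, interval -1.15 to 0.31), but Arc rose more in the step by 1.55 (0.82 to 2.29). Egr2 was 2.21-fold higher at 15 min without a call (adjusted p = 0.183) and rose 18.9-fold at 45 min. Arc minus Egr2 was 1.08 at 45 min (0.35 to 1.81) and 0.53 in the step (-0.19 to 1.26). Egr3 rose 2.54-fold at 45 min (adjusted p = 0.0332), a call that was lost in 15 of 22 alternatives. It was dim, with mean levels of -6.09 in TTX and -4.74 at 45 min, though well above background on every array.

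The orphan nuclear receptor Nr4a1 was called only at 45 min. Its levels were 1.97, 1.48 and 1.43 in TTX, 2.19, 1.86 and 2.18 at 15 min, and 5.77, 6.02 and 5.70 at 45 min, so TTX and 15 min overlapped. It rose 18.4-fold at 45 min. Arc changed more at 15 min by 1.24 (0.49 to 1.99) and at 45 min by 1.12 (0.37 to 1.87), while in the step Arc minus Nr4a1 was -0.12 (-0.87 to 0.63). Nr4a2 rose 3.45-fold at 45 min, a call lost in 5 of 22 alternatives. The brightest probe of Nr4a3, which is the one counted, was higher by 0.70 at 45 min and not called. The 3 probes of this gene disagreed, with changes of 0.16, 0.02 and 1.73 at 15 min and 0.70, 1.5 and 3.07 at 45 min, so its place beside Arc is uncertain.

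The other comparators changed less than Arc at 45 min. Among regulators of signalling and growth, the MAP kinase phosphatase Dusp1 rose 6.47-fold, the growth-arrest genes Gadd45b and Gadd45g 6.22-fold and 6.77-fold, Btg2 5.23-fold and Ier2 4.84-fold. The transcription factor Klf4 rose 4.81-fold, whereas the stress factor Atf3 was higher by 0.66 without a call (adjusted p = 0.108). Ccn1, a secreted matrix protein, rose 19.7-fold at 45 min, and its 2 probes gave changes of 4.30 and 3.89. The neurotrophin Bdnf was at -0.14 at 15 min and rose 3.84-fold at 45 min. Homer1, a postsynaptic scaffold gene, was at 0.00 and 0.11 on the log2 scale, with 0.12 for its other probe at 45 min. Which Homer1 transcripts these probes read was not tested, so the values hold for the probes and not for every transcript of the gene.

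The share of the 45 min signal already present at 15 min was 8.06% for Arc, 7.41% for Nr4a1, 9.35% for Ccn1, 9.85% for Npas4, 10.7% for Egr4 and 11.7% for Egr2. For Dusp1 it was 19.9%, for Egr1 23.7%, for Junb 27.4%, for Fos 30.0%, for Gadd45g 36.0% and for Ier2 41.6%. These shares restate the step from 15 to 45 min, and the 5 other genes of the first sentence are those whose step could not be told from that of Arc. This share holds the level already present in TTX, which was 20.7% of the 45 min signal for Ier2 and 2.50% for Arc.

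**Figure D3:**
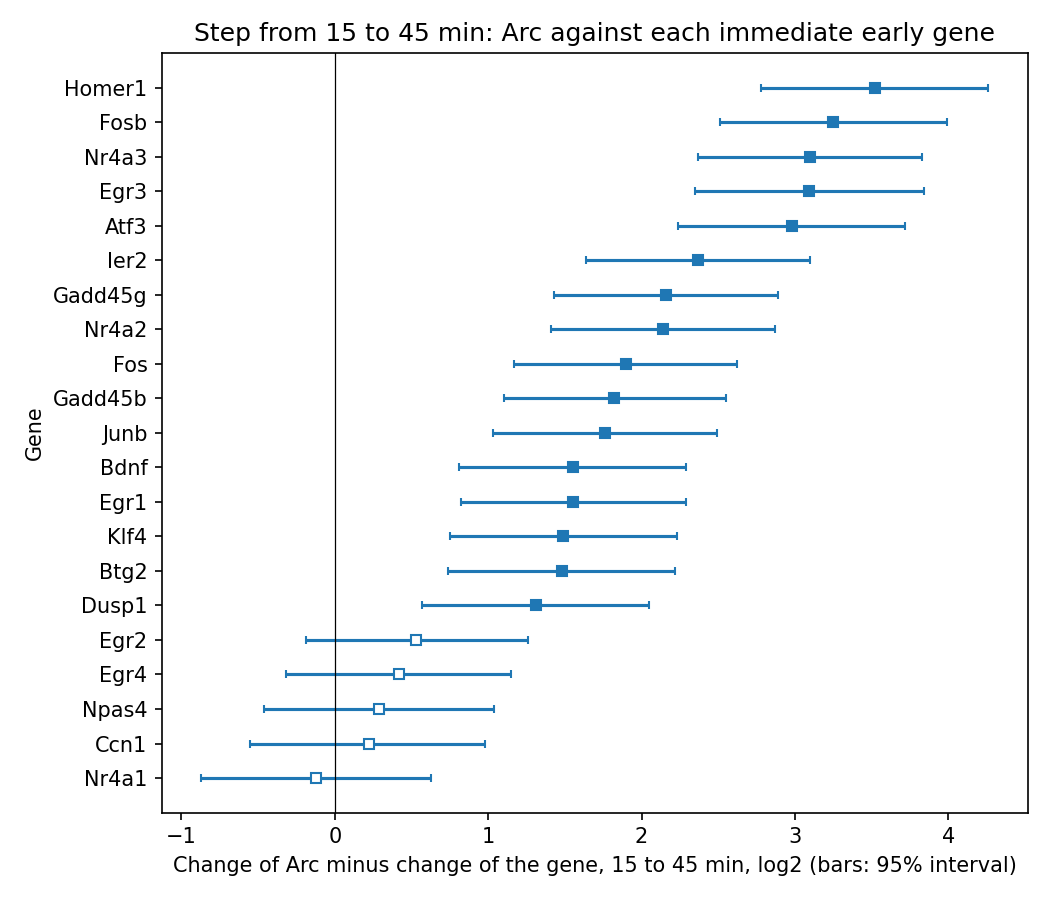
Change of Arc minus change of each of 21 immediate early genes between 15 and 45 min, on the log2 scale (x axis, bars are 95% intervals, 3 arrays per group), with open squares where the adjusted p was not under 0.05. For 16 genes Arc rose more, and the open squares are Egr2, Egr4, Npas4, Ccn1 and Nr4a1, from 0.53 to -0.12.

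Genes with the pattern most like that of Arc were sought among 12281 genes with a symbol and a value on every array, as a description. By Pearson's r over the 9 arrays, the 8 nearest were Egr2 (0.996), Gadd45b (0.988), Egr4 (0.987), Ier2 (0.985), Gadd45g (0.982), Ppp1r15a (0.981), Rasl11a (0.977) and Egr1 (0.972). These points share the arrays and their scaling, and 3 groups set most of each r. Ppp1r15a, a phosphatase subunit of the stress response, rose 2.58-fold at 45 min, and Rasl11a, a small GTPase, 5.53-fold. By the distance between the pairs of changes at 15 and 45 min, the nearest were Egr4 (0.40), Egr1 (1.21), Egr2 (1.21), Ccn1 (1.30) and Junb (1.56).

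The genes that act around Arc were also measured. Of 35 transcription factors, kinases and receptors upstream of Arc, 31 were matched to a probe by symbol, and all 31 passed the filter on low values. Limma called 0 of them at 15 min and 1 at 45 min, Bdnf, which is also a comparator. With 0.0233% and 0.182% of all genes called higher, a count of 0 in a list of this size is near the background and is no result about the list. Their median change was 0.06 and 0.11, near the 0.06 and 0.05 of all genes. Srf, which binds the serum response element, had a change of 0.04 at 15 min and 0.31 at 45 min. The factors Creb1 and Mef2d were at -0.26 and 0.35 at 15 min, and the kinase Mapk3 at -0.08. None of these 4 was called. RNA levels do not report the activity of these factors.

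Of 39 partners and cargo of the Arc protein, 38 were matched and all passed, and 0 were called in any comparison, again near the background, with medians of 0.13 and 0.09. The AMPA receptor subunits Gria1, Gria2 and Gria3 had changes of 0.09, 0.05 and 0.08 at 45 min. Among endocytic partners, the endophilin gene Sh3gl3 was at -0.18, dynamin 2 (Dnm2) at 0.11 and the AP-2 subunit Ap2m1 at 0.09. The furthest from 0 at 45 min were Ube3a, a ubiquitin ligase, at -0.60 and Pik3c2b, a lipid kinase, at 0.57. Ube3a was 3.32, 1.97 and 3.36 on the 3 arrays at 45 min and 3.48, 3.43 and 3.55 in TTX, and without W45 replicate 2 its change was -0.14. Pik3c2b was -4.20, -5.68 and -5.35 at 45 min and -5.80, -5.48 and -5.65 in TTX, and without W45 replicate 1 its change was 0.13.

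Of 29 factors that carry, decay or translate Arc mRNA, 25 were matched and all passed, and 0 were called, near the background too, with medians of -0.02 and 0.03. Fmr1, which binds dendritic mRNAs, was at -0.32 at 45 min, and Eif4g1, a translation initiation factor, at 0.41. Pura, which binds RNA in dendritic transport granules, was at -0.61. Its levels at 45 min were 3.52, 2.22 and 2.10, and without W45 replicate 1 it was called lower. The remaining W45 arrays both lay on slide 3, which held no TTX array, so slide and group cannot be told apart there. In that setting 94 genes were called lower at 45 min, against 5 with all arrays. All 10 actin and reference genes passed and 0 were called, again near the background, with Actb at 0.12 and Gapdh at 0.05 at 45 min.

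**Figure D4:**
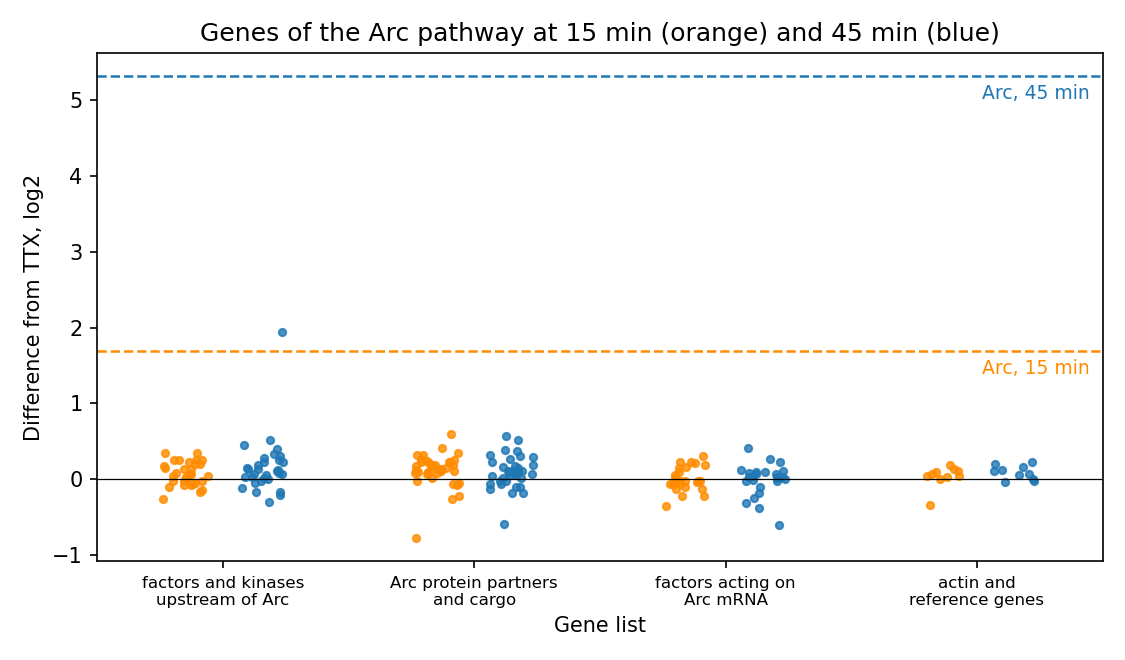
Difference from TTX on the log2 scale (y axis) at 15 min (orange) and 45 min (blue) for the measured members of 4 gene lists around Arc (points, spread sideways for view), with the change of Arc as dashed lines at 1.69 and 5.32. Bdnf, at 1.94, is the 1 member called, and all others lie between -0.78 and 0.59.

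The neighbours of Arc on its chromosome were taken in the gene order of the RefSeq table. The 5 genes listed before Arc were not matched to a probe by symbol. Of the 5 after it, Jrk, Them6, Slurp1 and Lypd2 were measured. Their log2 changes at 45 min were 0.15, 0.07, 0.00 and -0.09, and at 15 min -0.04, 0.27, 0.22 and 0.45, with 0 called in any comparison.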

How the data were processed

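Cy3-labelled cRNA from 500 ng of total RNA was hybridised to Agilent rat arrays (design 014879) and scanned, per the file headers with Feature Extraction 9.5.3.1 (9.5 in the submitters' processing notes). The deposited values are spot intensities of the Cy3 channel, processed by background subtraction and detrending and, per the file headers, not scaled between arrays. The deposited value table held the same intensity values (largest difference 0).

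From these, 1639 control spots and outlier spots were left out, log2 signals were averaged per probe, and each array's 75th percentile was subtracted. Probes well above background on all 3 arrays of a group were kept (30322), the brightest per gene. Names came from the RefSeq gene table of GRCr8, used for names and gene order only. Arc is also a synonym of Nol3, whose own probe was kept apart. All 9 arrays were fitted with limma 3.58.1 (R 4.3.3), 1 mean per group, two-sided moderated tests and Benjamini-Hochberg adjustment over all genes; 3 against 3 arrays cannot give an exact permutation p under 0.1. The fit was tested on simulated data. Figures used matplotlib 3.10.9 in Python 3.11.15.

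Arc, the lists and the tests were chosen with earlier results of these data known. Named are the comparators, the list members called or, failing that, the 2 with the largest change at 45 min, the 8 and 5 genes most like Arc, its neighbours and markers; Srf, Creb1, Mef2d, Mapk3, Gria1, Gria2, Gria3, Sh3gl3, Dnm2, Ap2m1, Fmr1, Actb and Gapdh were added as examples after their values were seen. Alternatives were scaling, background correction, filter, probe choice, spread, slide and replicate blocks, single slides and leaving out each array. The signal before detrending and the own spread of each difference were added after seeing the data. Slides, from the array barcodes, were slide 1 (TTX 1, W15 3, W45 1), slide 2 (TTX 2 and 3) and slide 3 (W15 1 and 2, W45 2 and 3).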

Additional observations from a re-analysis of the deposited data

How the results depend on the processing

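The direction of all 3 Arc comparisons held under every alternative run. Leaving out each array gave 1.49 to 1.94 at 15 min (adjusted p 0.0718 to 1.0), 5.20 to 5.52 at 45 min and 3.39 to 3.83 at 45 against 15 min. With a trended and robust spread Arc passed at 15 min (1.69, adjusted p = 0.0497). Slide 1 alone gave 5.71 at 45 min, and slide 3 alone 3.56 for the step, no longer past the threshold with 4 arrays. The 1 list member called at 45 min became 0 with slide as a fixed block; leave-one-out gave 1 to 2 at 45 min and 1 to 2 in the step, the second being Pura without W45 replicate 1. Leaving out an array, Arc rose more than 10 to 15, 15 to 17 and 16 comparators in the 3 comparisons. With Npas4 counted, 3 comparators rose more than Arc at 15 min and 2 at 45 min. These became 2 and 1 with normexp, and 2 and 1 with probes above background on all 9 arrays, where Npas4 was not tested.

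Some differences changed sign. Arc minus Egr4 at 45 min was -0.15 with normexp and -0.04 before detrending, and -0.20 to 0.15 when an array was left out, below 0 without TTX replicate 1 or W45 replicate 2. In the step, leaving out an array gave -0.04 to 0.73 for Arc minus Npas4 (below 0 without W15 replicate 2) and -0.42 to 0.19 for Arc minus Nr4a1 (above 0 without W15 replicate 2 or W45 replicate 3). Arc minus Ccn1 in the step was -0.19 to 0.56, below 0 without W15 replicate 1 or W45 replicate 1. With normexp, the change of Egr3 in the step was -0.19 against 0.54. Arc minus Npas4 kept its sign but shrank with normexp, to -0.94 at 15 min and -0.29 at 45 min, against -4.02 and -3.73 in the main fit. Normexp added an offset of 50 units to every signal, and both genes were dim in TTX. The mean level there was -8.52 for Npas4 and -6.09 for Egr3. The part of the offset in these shifts was not tested.

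Counts over all genes moved most: without W45 replicate 1, 80 were called higher and 94 lower at 45 min, against 47 and 5. Over all alternatives the genes called higher were 0 to 10 at 15 min, 19 to 80 at 45 min and 15 to 63 in the step, and those called lower 0 to 2, 0 to 94 and 0 to 128. The median of all genes at 15 and 45 min was -0.15 and -0.21 without scaling and 0.21 and 0.13 with normexp. With a replicate block the Arc changes were 1.69 (adjusted p = 0.672), 5.32 (3.21e-04) and 3.63 (0.00467), with 41 genes higher at 45 min and no change of call for Arc. The labels do not say that numbers pair the samples. Across groups, 8 of 9 same-number pairs correlated above 0.1, and 9 of 9 arrays correlated best with their own number, a hint from the data only. These same-number values ran from 0.06 to 0.39 and are not on the scale of the correlations within groups given above.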
